A study of Rattus norvegicus with 6 samples.

Results

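The 7 TNF receptor-associated factor genes (Traf1 to Traf7) and 3 genes that work directly with them, Birc2, Birc3 and Tnfaip3, were examined in RNA-seq libraries from rat cultures labelled PC12, with and without overexpression of the RNA-binding protein PCBP-1. The genes were taken by symbol from the deposited count table. All 10 were found among its 20609 genes, and all 10 passed the filter on low counts that left 12624 genes for testing.

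The study asked how PCBP-1 changes gene expression and splicing, with inflammation and ubiquitination as its themes. The control group was 3 libraries from cells labelled PC12 and given a control plasmid, and the PCBP1-OE group was 3 libraries from cells with the same label given a plasmid that carries PCBP1 joined to EGFP. PC12 is a rat line derived from a pheochromocytoma, a tumour of the adrenal chromaffin cells. The sources used here describe the overexpression as a lipid transfection and, elsewhere, as stable, and they call the libraries of a group biological replicates without describing separate cultures. The p-values therefore measure the spread between these libraries. PCBP-1 itself was not analysed here, so neither the overexpression nor its size was checked in these libraries.

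TRAF proteins are the adaptors that carry a signal from TNF-family receptors, and for TRAF6 from interleukin-1 and Toll-like receptors, to the kinases that free NF-kB to enter the nucleus. Most of them are ubiquitin ligases or recruit such ligases, and the cIAP proteins encoded by Birc2 and Birc3 are ligases that bind TRAF2. A20, the product of Tnfaip3, is a ubiquitin-editing enzyme that is itself induced by NF-kB and shuts the signal off. TRAF3 holds the non-canonical branch of the pathway in check by delivering the kinase NIK to the cIAP ligases.

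The libraries held 20268725, 21256970 and 22315623 counts in control replicates 1, 2 and 3, and 21367196, 19822383 and 19730209 counts in PCBP1-OE replicates 1, 2 and 3. Levels are given in CPM, the read count relative to the library's summed counts over the genes tested, after scaling by the trimmed mean of M-values (TMM). CPM is not divided by transcript length, so changes were judged between libraries. Sums over marker genes, and a marker described as the most abundant, refer to read counts and not to numbers of transcripts.

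The label PC12 was set against marker genes. Of 8 chromaffin markers 7 were analysed, and their summed level was 9.08, 10.3 and 9.28 CPM in the control libraries and 8.89, 9.37 and 10.2 CPM in the PCBP1-OE libraries. Most of this was Th, the rate-limiting enzyme of catecholamine synthesis, at 6.85 to 8.86 CPM. Dbh, Ddc, Chga and Chgb, which encode the later enzymes of that synthesis and the granins of the secretory vesicles, had between 0 and 9 counts in any library. Slc18a1, the vesicular monoamine transporter of chromaffin cells, was detected in each library at a low level, 0.758 to 1.27 CPM (17 to 28 counts), and Syp, a synaptic vesicle protein, had 4 to 12 counts. Dbh, Ddc, Chga and Chgb at or near 0 go against the label, and the libraries are referred to here by their group names. Ngfr, the low-affinity nerve growth factor receptor, was present at 185 to 202 CPM.

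Other cell types were checked in the same way. Of 9 leukocyte markers 7 were analysed, with summed levels of 48.2, 51.6 and 44.4 CPM in the controls and 39.2, 41.6 and 44.6 CPM in PCBP1-OE. The most abundant was Cd14, at 31.9 to 42.5 CPM, whereas Ptprc, the pan-leukocyte marker, had 0 to 3 counts in each library. Of 5 fibroblast markers 3 were analysed, with summed levels of 226, 229 and 224 CPM in the controls and 209, 199 and 211 CPM in PCBP1-OE. Nearly all of this was Pdgfra, a growth factor receptor, at 195 to 226 CPM, and Dcn had 0 to 5 counts. Of 4 endothelial markers 3 were analysed, with summed levels of 5.41, 4.07 and 5.62 CPM in the controls and 5.40, 5.90 and 4.95 CPM in PCBP1-OE. The most abundant was Tek, and Cdh5 had 4 to 9 counts. No tested gene of these 4 lists was called by edgeR's quasi-likelihood test, the edgeR exact test or limma-voom, and DESeq2 called 1, Pdgfra, as lower. The unadjusted p was under 0.05 for 1 leukocyte marker (Cd14) and 1 fibroblast marker (Pdgfra). The fibroblast sum was lower in each PCBP1-OE library than in each control, and the part of this in the results was not tested.

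Tnfaip3 and Traf3 were higher and Traf7 was lower in PCBP1-OE than in control at an adjusted p of 0.05 or less (edgeR's quasi-likelihood test, Benjamini-Hochberg adjustment over all genes tested). These 3 of the 10 genes stand beside 1193 of all 12624 genes called, or 9.45%. The 2 called higher stand beside 4.45% of all genes called higher, and the single gene called lower beside 5% called lower. None of the 10 also reached a 2-fold change, which 0.19% of all genes did. Before adjustment, 6 of the 10 had a p under 0.05, beside 28.4% of all genes tested. In bulk libraries, fewer cells with a transcript and less RNA per cell cannot be told apart.

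In 5 of the 10 genes (Traf3, Traf6, Traf7, Tnfaip3 and Birc2) the 3 control libraries and the 3 PCBP1-OE libraries did not overlap in CPM, beside 30.6% of all genes tested. The log2 fold change was above 0 in 7 genes and below 0 in Traf4, Traf5 and Traf7, although that of Traf5 turned positive with upper-quartile scaling (0.0023). Its median over the 10 genes was 0.12, beside 0.0029 for all genes tested. Over all genes, 562 were called higher and 631 lower, a share of 47.1% higher that became 60.5% (655 higher, 427 lower) with upper-quartile scaling, where the same 3 members were called. The number of genes called depended on single libraries. Leaving out control replicate 1, 2 or 3 gave 246, 48 or 2860 genes, and leaving out PCBP1-OE replicate 1, 2 or 3 gave 169, 136 or 697.

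**Figure D1:**
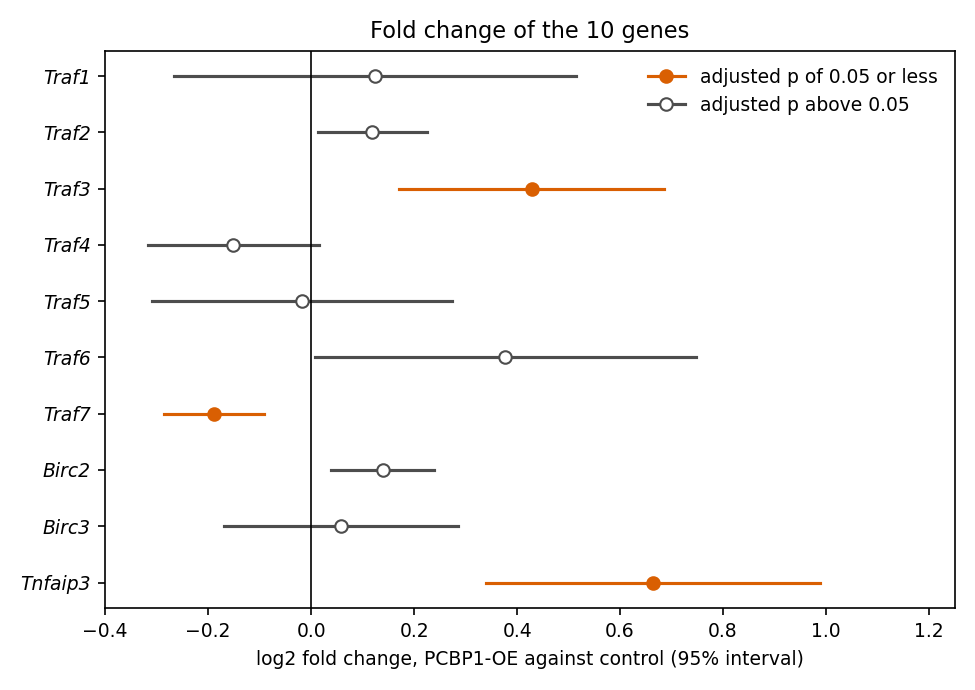
Log2 fold change of the 10 genes in PCBP1-OE against control (points) with the 95% interval of edgeR's quasi-likelihood fit (lines). Filled points mark the genes called at an adjusted p of 0.05 or less, which are Traf3 (0.43), Traf7 (-0.19) and Tnfaip3 (0.66).

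Traf3 (ENSRNOG00000008145, chromosome 6) restrains the non-canonical NF-kB branch and also links Toll-like and RIG-I-like receptors to the interferon response. Its level was 14.0, 15.3 and 19.9 CPM in control replicates 1, 2 and 3 and 23.3, 22.7 and 20.4 CPM in PCBP1-OE replicates 1, 2 and 3. The groups did not overlap, but control replicate 3 lay close to PCBP1-OE replicate 3 and well above the other controls. The mean was 16.4 ± 3.09 CPM (SD, n = 3) in control and 22.1 ± 1.54 CPM (SD, n = 3) in PCBP1-OE. The log2 fold change was 0.43 (SE 0.12, 95% interval 0.17 to 0.69), with an adjusted p of 0.0419. Leaving out control replicate 1 or 2 raised the adjusted p to 0.157 or 0.179, and leaving out PCBP1-OE replicate 1, 2 or 3 raised it to 0.164, 0.136 or 0.052. In these 5 fits the log2 fold change was 0.34 to 0.49. With control replicate 3 removed the gene was called, at an adjusted p of 0.000729.

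Counts per gene add up all transcripts of Traf3 and do not separate its splice forms. The study designed RT-qPCR primers for the forms of this gene, with a shared primer and a reverse primer for each form. They are shown because they mark what the gene-level value pools, and the capitals mark the 11 bases at the 3′ end that both reverse primers have in common.

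Traf3-M -R: acgtgcagggcCTAGCAGGGAG

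Traf3-AS-R: aaagtcttaCTAGCAGGGAG

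Traf3-M/AS: cagcagcatcaggtcaga

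Traf7 (ENSRNOG00000003131, chromosome 10) is the TRAF family member with WD40 repeats in place of the TRAF domain, and it binds the kinase MEKK3. Its level was 111, 121 and 114 CPM in control replicates 1, 2 and 3 and 102, 101 and 101 CPM in PCBP1-OE replicates 1, 2 and 3. Each PCBP1-OE library was below each control, and the PCBP1-OE libraries lay very close to one another (101 ± 0.55 CPM against 115 ± 4.89 CPM in control, SD, n = 3). The log2 fold change was -0.19 (SE 0.045, 95% interval -0.29 to -0.091), with an adjusted p of 0.0255. The change was small, a level 0.878 times that of the controls. With control replicate 1 or 2 removed the adjusted p rose to 0.0713 or 0.187, and with PCBP1-OE replicate 1, 2 or 3 removed to 0.123, 0.0946 or 0.0837. In these 5 fits its log2 fold change was -0.21 to -0.15. With control replicate 3 removed the adjusted p was 0.0093.

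Traf2 and Traf5 bind many of the same TNF-family receptors and start the signal to NF-kB and JNK. Traf2 ranged from 79.7 to 83.6 CPM in control and from 83.5 to 91.4 CPM in PCBP1-OE. The ranges met at control replicate 3 and PCBP1-OE replicate 1, and Traf2 was not called (log2 fold change 0.12, SE 0.049, adjusted p = 0.13). Traf5 ranged from 6.24 to 7.04 CPM in control and from 6.08 to 7.38 CPM in PCBP1-OE. Its groups overlapped throughout (log2 fold change -0.018, SE 0.14, adjusted p = 0.946), and the sign turned when control replicate 2 was removed (0.027) and when replicate 1 or 3 of PCBP1-OE was removed (0.010 or 0.045).

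Traf6 is the adaptor of interleukin-1 and Toll-like receptors, and it makes the ubiquitin chains on which the TAK1 kinase complex assembles. Its level was 5.15, 3.64 and 4.91 CPM in control and 5.45, 6.89 and 5.46 CPM in PCBP1-OE. The groups did not overlap, yet the gap between the highest control and the lowest PCBP1-OE library was smaller than the spread within either group. With 76 to 139 counts per library the fold change was imprecise (log2 fold change 0.38, SE 0.17, 95% interval 0.0072 to 0.75), and the gene was not called (adjusted p = 0.168). Its log2 fold change was 0.24 without control replicate 2, the lowest library, and 0.26 without PCBP1-OE replicate 2, the highest.

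Traf1 lacks the RING finger of the other family members and pairs with TRAF2, and it is an NF-kB target. It ranged from 2.99 to 4.49 CPM in control and from 4.13 to 4.45 CPM in PCBP1-OE, on 67 to 98 counts per library. Control replicate 3 was the low library, and the PCBP1-OE libraries lay inside the control range. The log2 fold change was 0.12 (SE 0.18, adjusted p = 0.697) and turned to -0.044 without control replicate 3. Traf4, which is known for roles in development and cell migration more than in TNF signalling, ranged from 31.6 to 37.0 CPM in control and from 28.9 to 31.7 CPM in PCBP1-OE. The ranges overlapped only at their ends (log2 fold change -0.15, SE 0.077, adjusted p = 0.216), and without control replicate 1, its highest library, the log2 fold change was -0.068 (adjusted p = 0.642).

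Birc2 and Birc3 encode cIAP1 and cIAP2, paralogs on chromosome 8. According to the study's methods uniquely mapped reads were counted, so reads that fit both genes equally would have been left uncounted. Reads from stretches that are near identical could still have been assigned to either. The levels of both genes are uncertain to that extent. Birc2 was 78.6, 80.5 and 84.9 CPM in control and 87.6, 90.2 and 91.0 CPM in PCBP1-OE. Each PCBP1-OE library was above each control, but the difference missed the threshold (log2 fold change 0.14, SE 0.047, adjusted p = 0.0737). It passed the threshold when control replicate 3 was left out (0.17, adjusted p = 0.0179). Birc3 was 12.5, 13.3 and 13.3 CPM in control and 14.5, 14.2 and 11.9 CPM in PCBP1-OE. PCBP1-OE replicate 3 was its lowest library and the groups overlapped (log2 fold change 0.058, SE 0.11, adjusted p = 0.758). On the log2 scale it was 0.036 without control replicate 1, 0.0044 without PCBP1-OE replicate 1, 0.026 without PCBP1-OE replicate 2 and 0.15 without PCBP1-OE replicate 3.

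Tnfaip3 (ENSRNOG00000049517, chromosome 1) had the largest fold change of the 10 genes in these libraries. Its level was 11.8, 10.5 and 17.2 CPM in control replicates 1, 2 and 3 and 21.3, 22.7 and 18.8 CPM in PCBP1-OE replicates 1, 2 and 3, on 220 to 469 counts per library. The order matched that of Traf3 in one respect, since control replicate 3 was again the highest control and PCBP1-OE replicate 3 the lowest PCBP1-OE library. The groups did not overlap. The mean was 13.2 ± 3.52 CPM (SD, n = 3) in control and 20.9 ± 1.98 CPM (SD, n = 3) in PCBP1-OE. The log2 fold change was 0.66 (SE 0.15, 95% interval 0.34 to 0.99), with an adjusted p of 0.0208. The call was lost when control replicate 1 or 2 was removed (adjusted p = 0.0937 or 0.121) and when PCBP1-OE replicate 1 or 2 was removed (0.0955 or 0.0919), with log2 fold changes of 0.53 to 0.65 in these 4 fits. Tnfaip3 was still called without control replicate 3 (adjusted p = 0.000115) and without PCBP1-OE replicate 3 (0.0358).

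**Figure D2:**
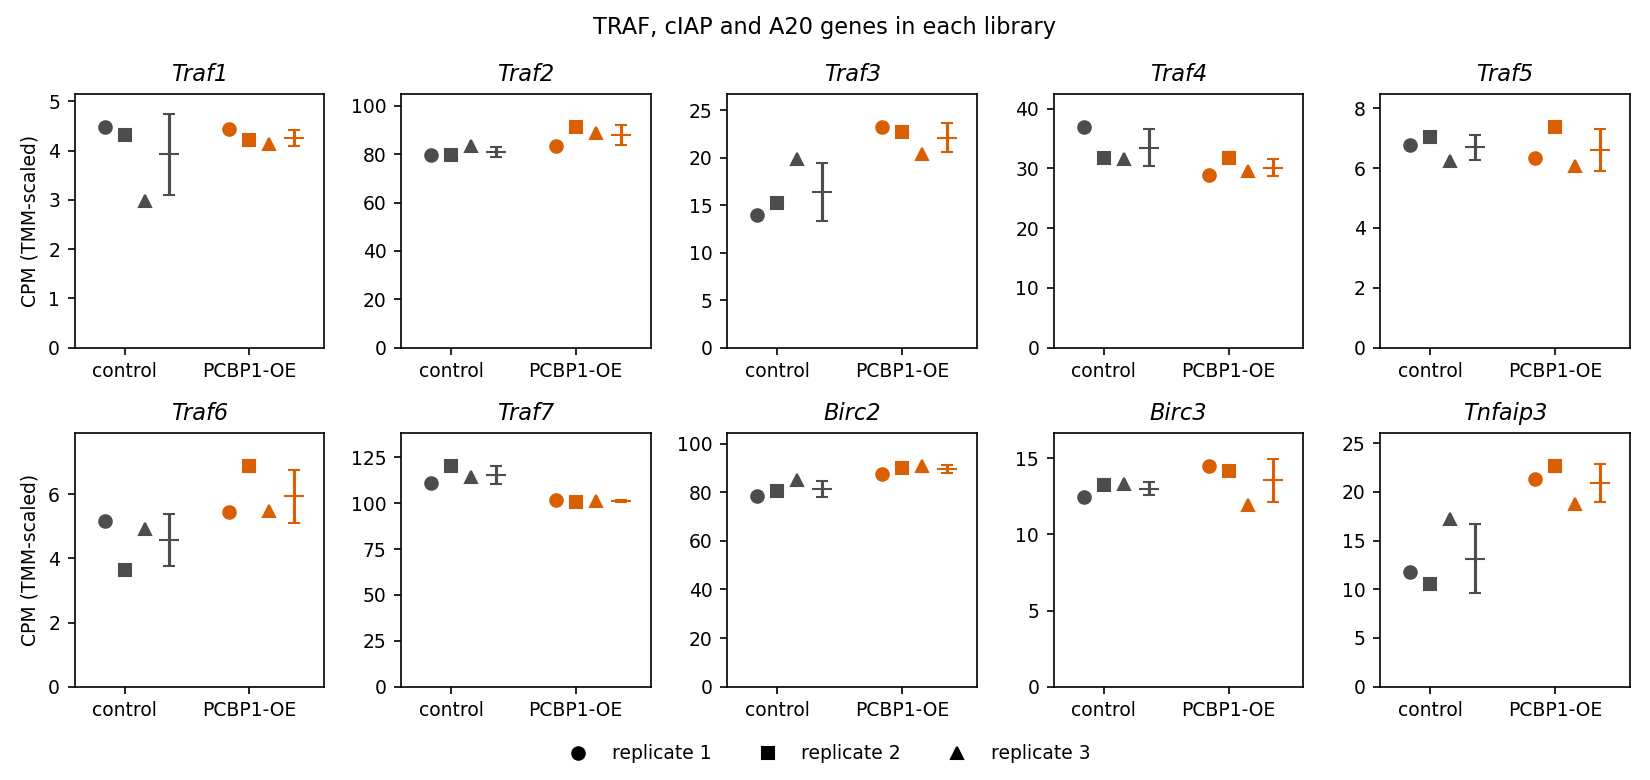
Level of each of the 10 genes in each library, in TMM-scaled CPM from 0, for control (grey) and PCBP1-OE (orange), with the symbol shape giving the replicate and the bar beside each group giving mean ± SD (n = 3). In Traf3 and Tnfaip3 control replicate 3 (19.9 and 17.2 CPM) sits between the other controls and the PCBP1-OE libraries, while in Traf7 the PCBP1-OE libraries (101 to 102 CPM) sit together below the controls.

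The spread among the controls differed between the genes. The coefficient of variation over the control libraries was 26.8% for Tnfaip3, 20.9% for Traf1, 18.8% for Traf3 and 17.7% for Traf6, beside a median of 7.05% over all genes tested. It was 2.76% for Traf2, 3.48% for Birc3, 3.96% for Birc2 and 4.24% for Traf7. The library that stood apart differed between genes. It was control replicate 2 in Traf6 (3.64 CPM) and control replicate 1 in Traf4 (37.0 CPM), and control replicate 3 in Tnfaip3, Traf3 and Traf1. The level in control replicate 3 was 53.8% above the mean of control replicates 1 and 2 for Tnfaip3 and 35.7% above it for Traf3, and it was -32.1% relative to that mean for Traf1. Without regard to sign, this difference had a median of 8.35% and a 95th percentile of 46.6% over all genes tested, which include genes with few counts. Among the PCBP1-OE libraries the coefficient of variation was 9.47% for Tnfaip3 and 6.96% for Traf3, beside a median of 6.04% over all genes.

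**Figure D3:**
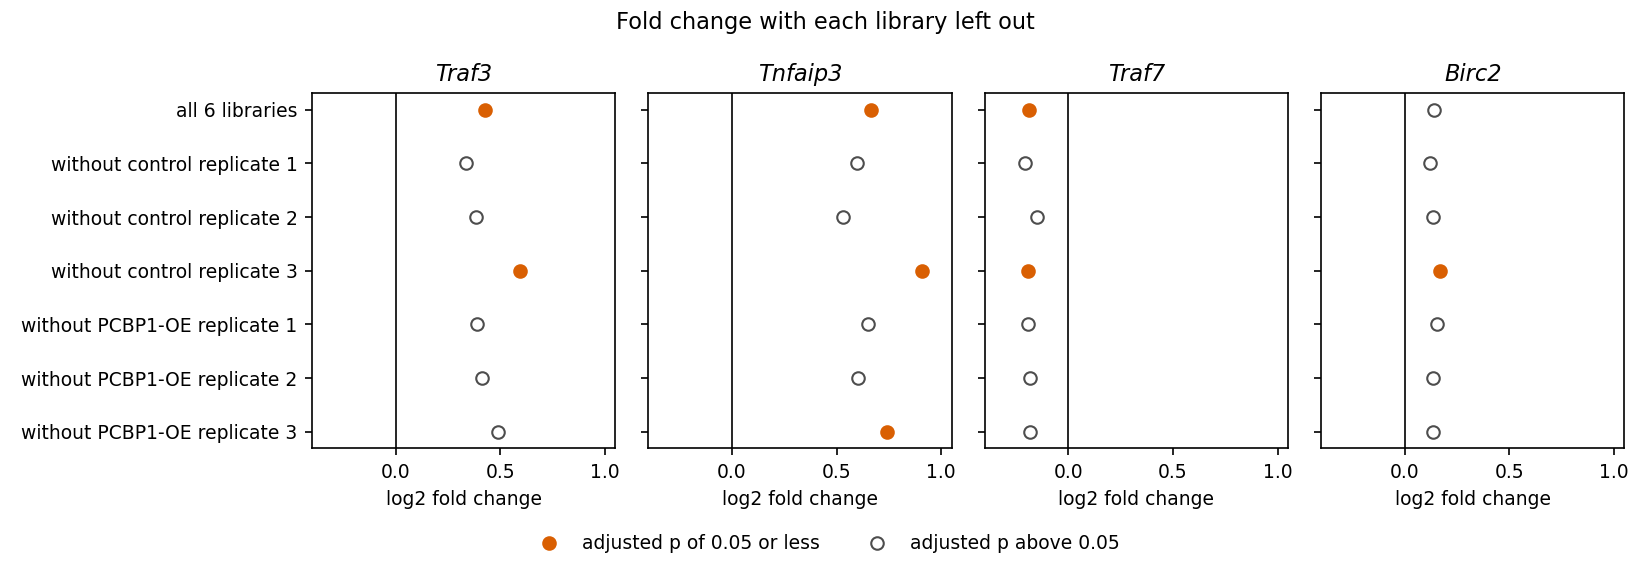
Log2 fold change of Traf3, Tnfaip3, Traf7 and Birc2 in PCBP1-OE against control with all 6 libraries and with each library left out in turn, filled where the adjusted p was 0.05 or less. The direction was the same in each fit shown, and without control replicate 3 all 4 genes were called.

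Ratios of counts inside a library need no scaling between libraries. For 3 pairs of partners, chosen after the gene values had been seen, the ratio was compared by a two-sided exact permutation test over the 6 libraries, in which the smallest possible p is 0.1. Traf3 gave 17.6, 19.2 and 23.8 counts per 100 Traf2 counts in control and 27.9, 24.8 and 22.9 in PCBP1-OE. These overlapped at replicate 3 of each group (exact permutation p = 0.2, 0.3 after adjustment over the 3 ratios). Tnfaip3 gave 4.87, 4.49 and 7.09 counts per 100 counts of Nfkbia, which encodes the NF-kB inhibitor IkB-alpha, in control and 8.53, 8.75 and 6.89 in PCBP1-OE. This ratio also overlapped at replicate 3 (exact permutation p = 0.2, 0.3 adjusted), unlike the CPM of Tnfaip3 alone. Birc3 gave 15.9, 16.5 and 15.7 counts per 100 Birc2 counts in control and 16.6, 15.7 and 13.1 in PCBP1-OE, with overlapping groups (exact permutation p = 0.7, 0.7 adjusted).

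The genes closest in pattern to Tnfaip3 over the 6 libraries, by the mean absolute difference in centred log2 CPM with no pseudocount, were Slc9a8 (0.029), Klf9 (0.033) and Dctn4 (0.045) of 12618 genes with a count in every library. Slc9a8 encodes a sodium-proton exchanger, Klf9 a Kruppel-like transcription factor and Dctn4 a subunit of the dynactin complex. Their log2 fold changes were 0.61, 0.71 and 0.59. The genes closest to Traf3 were Cnbd2 (0.028), Parp12 (0.033) and Cdkn2aip (0.034), with log2 fold changes of 0.39, 0.42 and 0.48. Parp12 encodes an interferon-inducible mono-ADP-ribosyltransferase. The ranking without a pseudocount was added after the data had been seen. With a pseudocount of 1 CPM, which draws genes of low level together, the nearest were Klf9, Dctn4 and Nek7 for Tnfaip3 and AC131537.1, Parp12 and Cnbd2 for Traf3. Without it Nek7 ranked 12 and AC131537.1, at a mean of 0.764 CPM in control, ranked 6769. Having been chosen for their likeness to these genes, their fold changes are descriptions.

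Promoter windows of 300 bases from RefSeq (GRCr8), each around a start listed for the gene, were matched to 8 of the 10 genes; Traf6 and Birc3 were not matched. Any further start listed for a gene was not searched, so a motif there would not be seen. The starts used are not always the outer end of the annotated gene. The windows of Traf1, Traf3 and Birc2 lie wholly inside it, and 112 bases of the Traf7 window, 141 of Traf2, 233 of Traf5, 236 of Tnfaip3 and 250 of Traf4 lie outside. The NF-kB consensus motif, searched on both strands, was found in the windows of Tnfaip3, Traf3 and Traf7 and not in those of Traf1, Traf2, Traf4, Traf5 and Birc2. It was present in 7.51% of all 33469 promoters of 300 bases, a share not matched for base content. The share of G and C was 82.3% in the Traf3 window, 63.7% in Tnfaip3 and 55.3% in Traf7. It ranged from 33.3% (Birc2) to 72.7% (Traf4) in the windows without the motif, beside a median of 51.7% over all promoters. The interferon-response core GAAANNGAAA, present in 3.92% of them, was in none of the 8 windows. A match of letters is a description and not a binding site, and binding was not measured. The sequences with matches are shown because they belong to the 3 genes called, with the matched letters in capitals.

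The Tnfaip3 window held 3 matches, of which the one farthest from the start read on both strands. The 236 bases of it that lie upstream of the annotated gene are at chr1:15543994-15544229 (GRCr8), on the minus strand.

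Tnfaip3: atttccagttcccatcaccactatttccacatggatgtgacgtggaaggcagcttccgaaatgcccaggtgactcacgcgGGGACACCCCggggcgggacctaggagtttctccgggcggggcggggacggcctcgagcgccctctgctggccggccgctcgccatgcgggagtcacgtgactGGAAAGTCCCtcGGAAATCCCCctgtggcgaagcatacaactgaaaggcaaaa

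The Traf3 and Traf7 windows held 1 match each, inside the annotated span of the gene. The 30 bases around the match are at chr6:136027029-136027058 on the plus strand for Traf3 and at chr10:14056694-14056723 on the minus strand for Traf7 (GRCr8).

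Traf3: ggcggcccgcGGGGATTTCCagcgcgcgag

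Traf7: cacagtgcccGGGGACTTCCggctcctgta

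The genes around these 10 were taken in 8 further lists. In each, the genes called stand beside 4.45% of all genes called higher and 5% called lower. Those with an unadjusted p under 0.05 stand beside 28.4%. These shares are from edgeR's quasi-likelihood test. Of the same 12624 genes, DESeq2 called 666 higher and 752 lower. The edgeR exact test called 794 higher and 807 lower, and limma-voom 573 higher and 624 lower.

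Upstream of the TRAF proteins are ligands, and the list held Il1a, an interleukin-1 ligand, beside ligands of the TNF family. Of 10 ligand genes listed 5 were analysed, and 2 of these had enough counts to be tested. Tnfsf12, which encodes TWEAK, was 28.5 to 31.9 CPM in control and 27.3 to 29.9 CPM in PCBP1-OE (log2 fold change -0.085, adjusted p = 0.477). Tnfsf13b, which encodes the B-cell factor BAFF, was 0.535 to 1.28 CPM over the 6 libraries (0.34, adjusted p = 0.579). No ligand was called by edgeR's quasi-likelihood test, DESeq2, the edgeR exact test or limma-voom, and 0 had an unadjusted p under 0.05 in any of them.

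Of the 18 receptor genes, all in the table, 13 were tested, 0 were called higher and 2 lower, and 4 (30.8%) had an unadjusted p under 0.05. The median log2 fold change was 0.0048. The edgeR exact test called 1 higher, Tlr4 (adjusted p = 0.0463), named after its value had been seen. Tnfrsf1a, the main receptor for TNF, was 74.7, 80.1 and 72.1 CPM in control and 62.4, 63.5 and 61.8 CPM in PCBP1-OE. Each PCBP1-OE library was below each control (log2 fold change -0.27, SE 0.051, adjusted p = 0.0111). Tnfrsf9, the co-stimulatory receptor 4-1BB, was 14.0, 12.5 and 13.1 CPM in control and 11.2, 9.62 and 9.50 CPM in PCBP1-OE, again without overlap (-0.38, SE 0.11, adjusted p = 0.0468). Without control replicate 2 or PCBP1-OE replicate 2 the call of Tnfrsf1a was lost, with adjusted p-values up to 0.0692. That of Tnfrsf9 was lost without any single library other than control replicate 3, with adjusted p-values up to 0.166. Over the fits with a library removed the log2 fold change was -0.31 to -0.22 for Tnfrsf1a and -0.47 to -0.33 for Tnfrsf9.

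Among the adaptors and kinases that act beside or below the TRAF proteins, 14 of 15 genes were tested, 2 were called higher and 0 lower, and 8 had an unadjusted p under 0.05 (57.1%). The edgeR exact test also called Tab3 higher (adjusted p = 0.0338), which was named after its value had been seen. Tab2 encodes the TAK1 partner that reads ubiquitin chains. It was 87.4, 89.6 and 102 CPM in control and 111, 115 and 109 CPM in PCBP1-OE (log2 fold change 0.27, SE 0.056, adjusted p = 0.0169). Chuk encodes IKK-alpha, the kinase of the non-canonical branch. It was 51.1, 53.3 and 51.7 CPM in control and 67.3, 54.8 and 66.2 CPM in PCBP1-OE, where replicate 2 lay near the controls (0.27, SE 0.071, adjusted p = 0.0349). Neither gene overlapped between the groups. Removing control replicate 1 or 2 or PCBP1-OE replicate 1 ended both calls, removing PCBP1-OE replicate 2 also ended that of Tab2 and removing PCBP1-OE replicate 3 that of Chuk, with adjusted p-values up to 0.121 and 0.149. With a library removed, the log2 fold change was 0.23 to 0.34 for Tab2 and 0.22 to 0.36 for Chuk.

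The arm from TRAF3 to interferon, with the sensors, the kinases TBK1 and IKK-epsilon and the factors IRF3 and IRF7, had 10 of 11 genes tested. edgeR's quasi-likelihood test called 0, with 5 at an unadjusted p under 0.05 (50%), and limma-voom called 0. DESeq2 called Irf7 and Ddx58 higher, and the edgeR exact test called Irf7, Ddx58 and Ifih1 higher and Irf3 lower. Irf7, Ddx58 and Ifih1, named after their values had been seen, had log2 fold changes of 0.73, 0.70 and 0.35. Their quasi-likelihood adjusted p-values were 0.0593, 0.0714 and 0.053. In Ddx58 the groups overlapped, with control replicate 3 at 6.69 CPM and PCBP1-OE replicate 3 at 5.87 CPM. Ikbke, which encodes IKK-epsilon, was also named after its value had been seen. It was lower without overlap (log2 fold change -0.35, quasi-likelihood adjusted p = 0.07). Ddx58 and Ifih1 encode the RNA sensors RIG-I and MDA5. The genes with the most counts were Tbk1 and Irf3. Tbk1 was 45.2 to 54.5 CPM in control and 48.2 to 55.9 CPM in PCBP1-OE (log2 fold change 0.061, adjusted p = 0.626). Irf3 was 42.0 to 49.2 CPM in control and 37.2 to 38.9 CPM in PCBP1-OE, without overlap (-0.22, adjusted p = 0.0552).

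The NF-kB subunits and their IkB inhibitors, 11 genes of which 11 were tested, had a median log2 fold change of 0.015. None was called by edgeR's quasi-likelihood test, DESeq2, the edgeR exact test or limma-voom, and 3 (27.3%) had an unadjusted p under 0.05. Nfkbia was 235 to 242 CPM in control and 249 to 273 CPM in PCBP1-OE (log2 fold change 0.12, adjusted p = 0.105). Rela, the activating subunit p65, was 109 to 122 CPM in control and 110 to 123 CPM in PCBP1-OE (0.015, adjusted p = 0.893). Tnfaip3 and Nfkbia, each a feedback inhibitor induced by NF-kB, thus had log2 fold changes of 0.66 and 0.12.

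Of the 19 genes for ubiquitin partners and other brakes 16 were tested, with 1 called higher and 2 lower, 6 (37.5%) at an unadjusted p under 0.05 and a median log2 fold change of -0.012. Itch, a ubiquitin ligase that works in a complex with A20, was 7.70, 7.71 and 10.4 CPM in control and 15.5, 12.8 and 11.2 CPM in PCBP1-OE. Control replicate 3 and PCBP1-OE replicate 3 were again the libraries nearest each other (log2 fold change 0.61, SE 0.15, adjusted p = 0.028). Otub1, a deubiquitinase, was 99.2 to 104 CPM in control and 84.9 to 92.8 CPM in PCBP1-OE (-0.18, SE 0.048, adjusted p = 0.0368). Tnip1, which encodes the A20-binding protein ABIN1, was 110 to 120 CPM in control and 101 to 105 CPM in PCBP1-OE (-0.16, SE 0.046, adjusted p = 0.0483). The A20 partners Itch and Tnip1 were called in opposite directions. Tax1bp1 and Tnip2, further A20 partners in this list, were named after their values had been seen. Neither was called (log2 fold changes 0.099 and -0.016, quasi-likelihood adjusted p = 0.189 and 0.937). The calls of Itch, Otub1 and Tnip1 all ended when replicate 1 or 2 of either group was removed. The adjusted p-values were up to 0.146 for Itch, 0.182 for Otub1 and 0.274 for Tnip1. Over the fits with a library removed, the log2 fold changes were 0.47 to 0.77 for Itch, -0.21 to -0.14 for Otub1 and -0.18 to -0.12 for Tnip1. The calls of Otub1 and Tnip1 were lost without PCBP1-OE replicate 3 as well. DESeq2 and limma-voom did not call Tnip1 (adjusted p = 0.0538 and 0.0533).

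Of the 7 genes for TRAF-binding and TRAF-like proteins 4 were tested. None was called by any of these 4 tools, and 0 had an unadjusted p under 0.05. Trafd1, a TRAF-type zinc finger protein, was 93.3 to 99.2 CPM in control and 87.1 to 96.4 CPM in PCBP1-OE (log2 fold change -0.070, adjusted p = 0.382). Traip, a TRAF-interacting ubiquitin ligase, was 15.83 to 15.96 CPM in control and 12.5 to 15.5 CPM in PCBP1-OE (-0.18, adjusted p = 0.259).

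Genes known as NF-kB targets moved in both directions. Of 23 listed 19 were tested, 3 were called higher and 2 lower, and 8 (42.1%) had an unadjusted p under 0.05. The median log2 fold change was 0.075. Cxcl10, a chemokine also induced by interferon, was 118, 113 and 105 CPM in control and 158, 146 and 163 CPM in PCBP1-OE (log2 fold change 0.48, SE 0.055, adjusted p = 0.00125). Lcn2, the iron-binding protein lipocalin 2, was 9.89, 10.4 and 10.1 CPM in control and 4.95, 5.15 and 5.05 CPM in PCBP1-OE (-1.0, SE 0.12, adjusted p = 0.00131). In both genes the groups lay far apart relative to the spread within them, and both were called with any single library left out (highest adjusted p 0.0202 and 0.0186).

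Gadd45b, a stress-response gene, was 237, 222 and 231 CPM in control and 266, 279 and 278 CPM in PCBP1-OE (log2 fold change 0.26, SE 0.044, adjusted p = 0.00927). The chemokine Ccl5 was 1.53, 1.58 and 1.70 CPM in control and 3.27, 2.43 and 2.91 CPM in PCBP1-OE (0.84, SE 0.21, adjusted p = 0.0289). Complement C3, named after its value had been seen, was 6.66 to 10.2 CPM in control and 5.40 to 5.90 CPM in PCBP1-OE (-0.57, SE 0.16, adjusted p = 0.042). None of these overlapped between the groups. The call of Gadd45b was lost without control replicate 2 or PCBP1-OE replicate 2, with adjusted p-values up to 0.0732. Those of Ccl5 and C3 were lost without any single library other than control replicate 3, up to 0.143 and 0.18. With a library removed, the log2 fold change was 0.24 to 0.28 for Gadd45b, 0.73 to 0.95 for Ccl5 and -0.71 to -0.41 for C3. limma-voom did not call C3 (adjusted p = 0.0536).

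**Figure D4:**
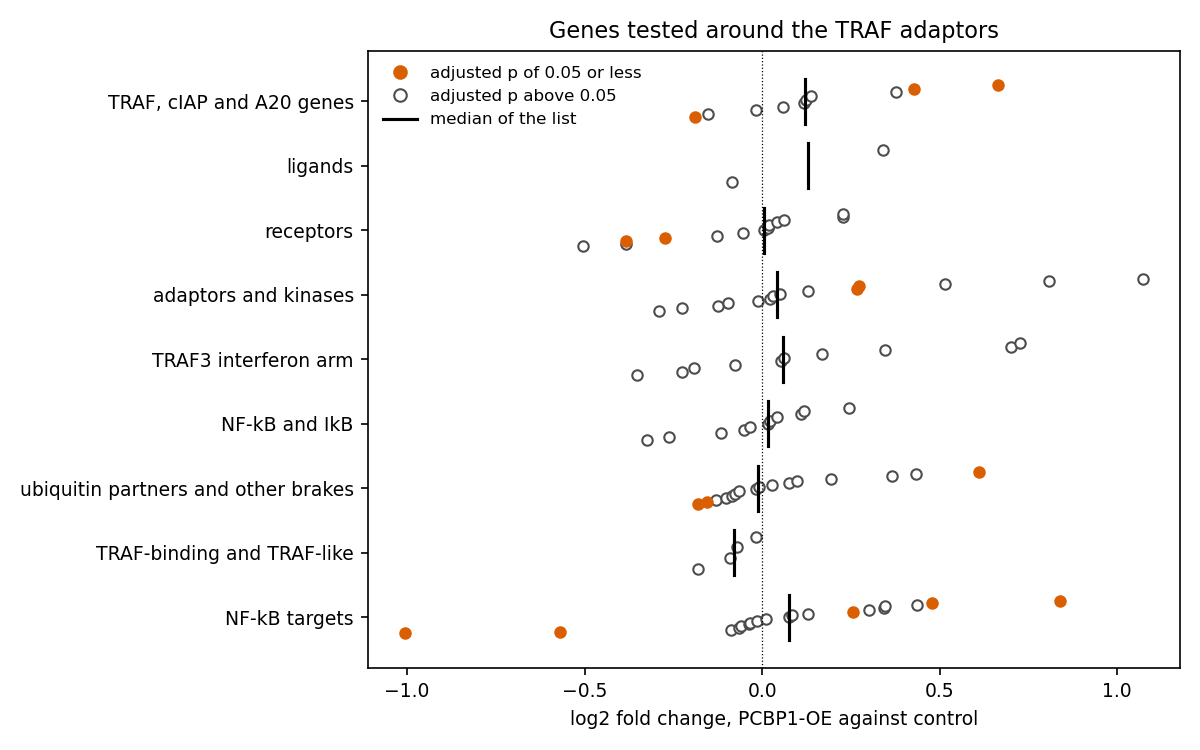
Log2 fold change in PCBP1-OE against control of each gene tested in the TRAF, cIAP and A20 group and in the 8 lists around it (points, filled where the adjusted p was 0.05 or less), with the median of each list as a bar. Tnfaip3 (0.66) and Traf3 (0.43) are the filled points to the right in the top row, no point is filled in the NF-kB and IkB list, and Lcn2 (-1.0) is the lowest of the NF-kB targets.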

How the data were processed

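Polyadenylated RNA of 6 libraries labelled PC12 was sequenced by the authors, who deposited raw read counts per gene. According to the study's methods, reads were trimmed with FASTX-Toolkit and aligned with TopHat2 to the rat genome, and uniquely mapped reads were counted. The submitters' processing notes name bcl2fastq, TopHat2 and edgeR, with a human build in place of the rat build of the methods; the deposited gene identifiers are those of rat. The library kit also differs between the labels and the methods. Both describe strand-specific libraries. Which program counted the reads, with which strand setting and annotation release, is not given in the sources used here, and so it is not known whether reads of antisense genes were separated. Symbols and chromosomes are those of the deposited table.

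Libraries were grouped by their titles. Counts were filtered with filterByExpr (minimum count 10, minimum total 15), scaled by TMM and tested with the quasi-likelihood test of edgeR 4.0.16 in R 4.3.3, with Benjamini-Hochberg adjustment over 12624 genes and a threshold of 0.05. The alternatives tried were scaling by RLE or by the upper quartile, testing without a filter, at least 1 CPM in 3 libraries, DESeq2 1.42.0, the edgeR exact test, limma-voom (limma 3.58.1), a replicate block and each library left out. Members and lists were chosen with earlier results of these data known. Named genes were all members, of each list the genes called (at most 4, by smallest adjusted p) or the 2 with the most counts where under 2 were called, and the 3 genes nearest in pattern to Tnfaip3 and to Traf3 in centred log2 CPM. The ratios of counts were added after the values had been seen and were tested with scipy 1.17.1.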

Additional observations from a re-analysis of the deposited data

How the results depend on the processing

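The same 3 of the 10 genes (Traf3, Traf7 and Tnfaip3) were called with RLE scaling, upper-quartile scaling, no filter, the CPM filter, DESeq2, the edgeR exact test and limma-voom. With single libraries left out, the number called ranged from 0 to 4. In the fits with 0 calls, an unadjusted p under 0.05 was found for 4 or 5 of the 10 genes. The share of all genes at that level is not given for these fits, and it was 28.4% with all libraries. A fit with fewer libraries has less power by construction, and the rise to 4 came without control replicate 3; the cause was not tested. The adjusted p over the alternatives ranged from 0.000407 to 0.179 for Traf3, from 0.00732 to 0.187 for Traf7 and from 3.01e-08 to 0.121 for Tnfaip3, and their directions were the same in each.

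The number of all genes called, 1193, was 2090 with no filter, where 20609 genes were tested. It was 1418 with DESeq2, 1601 with the edgeR exact test and 1197 with limma-voom. With single libraries left out it ranged from 48 to 2860. The median log2 fold change of the 10 genes lay between 0.11 and 0.14 in each alternative. The number with groups that did not overlap was 5 with TMM scaling of all libraries, beside 30.6% of all genes tested. It was 6 or 7 with the other scalings and filters and with single libraries left out. The share of all genes is not given for those settings, so this rise is not read as a result about the 10 genes. With a library left out, groups of any gene are less likely to overlap by construction. Traf1 ranged from -0.044 to 0.24 and Traf5 from -0.10 to 0.045 with single libraries left out, and Traf5 was 0.0023 with upper-quartile scaling; neither was called in any alternative.

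With the replicate number as a block, 0 of the 10 genes and 16 of all genes were called. In this fit 4 of the 10 had an unadjusted p under 0.05, and the share of all genes at that level is not given for it. Libraries with the same number did not deviate together (correlations of -0.104, -0.0813 and -0.107, on log2 of CPM plus 1), and none correlated best with its own number, so the numbers were not taken to pair the libraries. Genes with few counts, such as Traf1 and Traf6, were measured too imprecisely for small changes to be seen.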
